A study of Mus musculus with 37 samples.

Results

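Growth factor receptors with a tyrosine kinase in their cytoplasmic part, many of them studied in glioma, were followed at the RNA level in mouse astrocyte cultures. The 9 receptor genes were Egfr, Erbb2, Erbb3, Pdgfra, Met, Fgfr1, Fgfr2, Fgfr3 and Axl, out of 18193 genes that the arrays covered with a probe set of 1 gene symbol. They were taken as a named list, and all 25 probe sets annotated to them were collected from the deposited table. Of these, 15 exceeded the background level (3.189 on the log2 scale, the median of the whole table) on at least 4 arrays and were tested, and 10 were not.

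Receptors of this class bind a peptide growth factor outside the cell, pair, and phosphorylate each other, which starts the RAS-ERK and PI3K-AKT cascades that drive division, survival and migration. EGFR is amplified or mutated in many glioblastomas, PDGFRA marks oligodendrocyte precursors and a class of gliomas, MET and AXL are tied to invasion, and the FGF receptors respond to FGFs held by heparan sulfate on the cell surface. In the brain, astrocytes and their radial glial precursors express Fgfr3 and Fgfr2, and cultured astrocytes divide when given EGF.

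The cells were primary astrocytes from newborn mice (postnatal day 0 to 1) grown in DMEM with 20% serum and antibiotics, nucleofected with the plasmid pcDNA3.1-hygro CDCA7L or with the empty pcDNA3.1-hygro vector. The series describes stable transfection and independent isolates, and the labels mark each array with a clone number and a number in parentheses, such as 3(1). With the Cdca7l plasmid there were 5 arrays of 129S4/SvJae (129) males, 4 of 129 females, 5 of C57BL/6J (B6) males and 4 of B6 females. With the vector there were 5 arrays of 129 males, 4 of 129 females, 5 of B6 males and 5 of B6 females. Of 22 clone labels, 15 were present with both plasmids, so arrays of the groups can share an isolate.

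One array was dim: 129 female vector 1(3) had an upper quartile of 8.36 (log2), against 9.03 to 9.51 for the other 36. Sex markers went against the label of B6 female vector 5.1(1), with Xist at 2.40, against 10.71 to 12.20 in the remaining 16 female samples, and Eif2s3y at 11.91, inside the male range of 11.73 to 12.71. Results that turn on these arrays are given with and without them. Cdca7l itself was at 10.15 to 14.42 on the 18 arrays labelled with its plasmid and at 4.12 to 10.43 on the 19 vector arrays, with no overlap within a strain and sex. The astrocyte label was checked against 10 markers, all of which were tested: Gfap, Aqp4, Slc1a3, Aldh1l1, Gja1, Aldoc, Fabp7 and Glul exceeded background on 37 arrays, Slc1a2 on 36 and S100b on 13. Of oligodendrocyte lineage markers, Olig1, Olig2 and Cnp exceeded background on 37 arrays, while Sox10 and Cspg4 did so on 1 and Mag and Gpr17 on 0. These are bulk RNA values, so fewer cells of a type and less RNA per cell cannot be told apart.

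Each of the 9 receptors had a tested probe set. The main probe set of a gene, that with the highest mean, exceeded background on every array for Egfr, Erbb3, Met, Fgfr1, Fgfr2, Fgfr3 and Axl, and on 36 of 37 arrays for Erbb2 and Pdgfra. Of the 10 probe sets that were not tested, 8 did not exceed background on any array, Pdgfra 1421916_at did so on 2 arrays and Fgfr2 1443211_at on 1. They comprised 4 of the 7 Egfr probe sets and 1 of each of Erbb3, Pdgfra, Met, Fgfr2, Fgfr3 and Axl. Levels were not compared between probe sets or genes. When the 8 group means of a main probe set were put in order, 1 of 63 gaps between neighbours exceeded the SD within those neighbouring groups: that of Fgfr3 between B6 male Cdca7l arrays at 10.19 and B6 female Cdca7l arrays at 10.48.

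**Figure D1:**
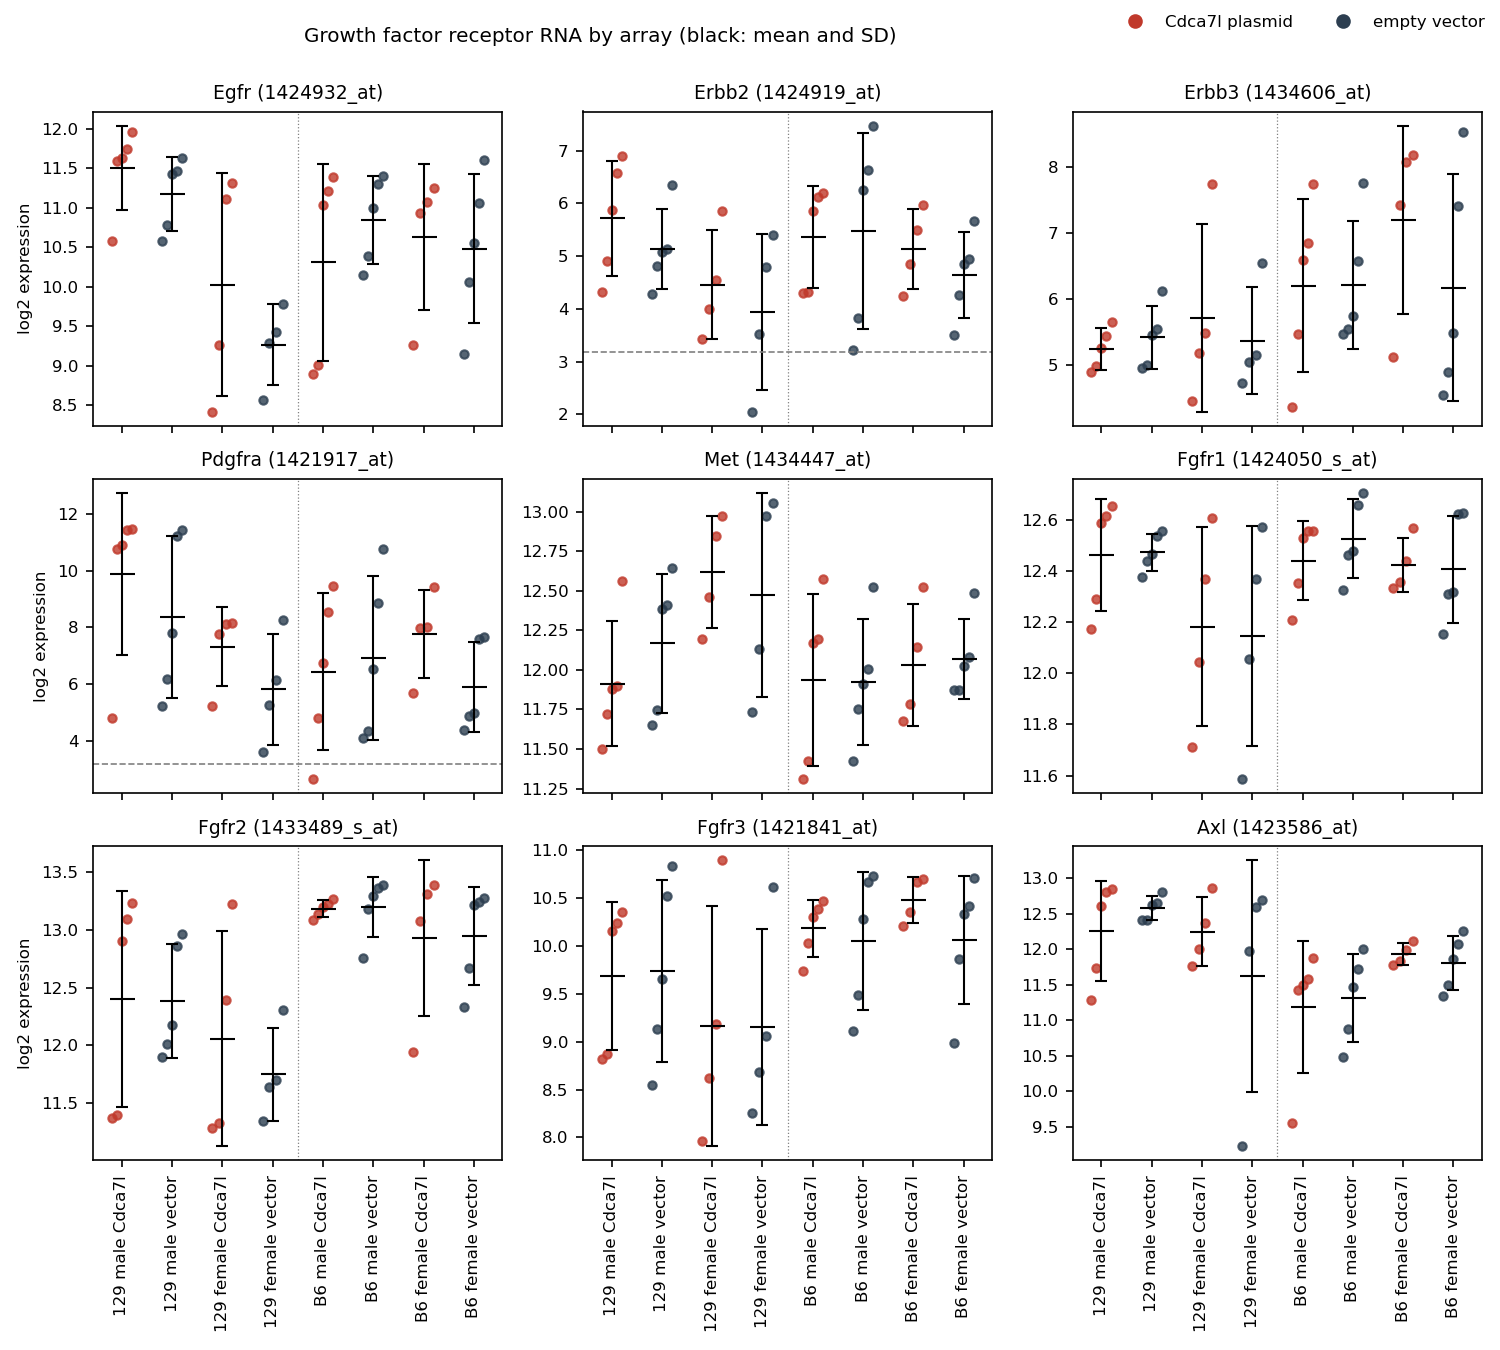
Log2 expression (vertical axis) of the main probe set of each receptor on every array, for the 8 groups along the horizontal axis, with red points for the Cdca7l plasmid and dark points for the empty vector; black bars give mean and SD, and the dashed line, where shown, marks the background level of 3.189. Pdgfra has the widest scatter, and within each strain and sex the points of both plasmids overlap for all 9 receptors.

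Strain was the comparison in which receptor RNA differed most often. In vector arrays, averaged over sex, 3 of the 15 receptor probe sets passed an adjusted p of 0.05, all lower in 129 than in B6 astrocytes: 1 of Fgfr2 and 2 of Fgfr1. Over all 25579 probe sets tested, 9.46% passed in this comparison and 6.24% did so as lower and 3.22% as higher in 129. With the number before the bracket as a random block, 0 of 15 passed. The count was 1 to 4 over the fits that left out 1 array. Adjusted p-values are from limma over all tested probe sets, differences are on the log2 scale, and ± after a difference is its standard error.

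Fgfr2, a receptor for FGF7 and FGF10 in its epithelial splice form and for FGF1 and FGF2 more widely, was lower in 129 astrocytes. Its main probe set, 1433489_s_at, read 12.17, 12.01, 11.90, 12.86 and 12.96 in 129 male vector arrays, against 12.76, 13.39, 13.30, 13.37 and 13.18 in B6 male vector arrays. It read 11.35, 11.70, 11.64 and 12.31 in 129 female vector arrays, against 12.33, 13.25, 13.28, 13.21 and 12.67 in B6 female vector arrays. In females all 4 arrays of 129 lay below all 5 of B6, and in males 2 arrays of 129 reached into the B6 range. The averaged difference was -1.01 ± 0.27, a 2.01-fold lower level (adjusted p = 0.015), with -0.82 ± 0.37 in males (adjusted p = 0.274) and -1.20 ± 0.39 in females (adjusted p = 0.0601). The other tested probe set, 1420847_a_at, was at -1.23 averaged (adjusted p = 0.0612) and at -1.91 in males (adjusted p = 0.0668), where the 5 arrays of 129 at 4.85 to 6.66 lay below the 5 of B6 at 6.83 to 7.86.

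Fgfr1, the most broadly expressed FGF receptor and the main one for FGF2, gave different answers by probe set. Probe set 1425911_a_at read 6.23, 6.997, 7.29 and 5.67 in 129 female vector arrays, against 8.12, 9.57, 9.92, 9.43 and 8.75 in B6 female vector arrays. Every 129 female array was below every B6 female array, with a difference of -2.61 ± 0.67, a 6.11-fold lower level (adjusted p = 0.019). In 129 male vector arrays it read 9.30, 9.40, 9.13, 9.07 and 8.94, against 10.07, 9.75, 9.87, 9.74 and 9.02 in B6 male vector arrays. The ranges of the males overlapped, and the difference of -0.52 ± 0.63 did not pass (adjusted p = 0.768). Averaged over sex the difference was -1.57 ± 0.46 (adjusted p = 0.0297).

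Probe set 1436551_at of Fgfr1 was also lower in 129. It read 9.42, 9.33, 9.22 and 10.33 in 129 female vector arrays, against 10.57, 10.93, 11.44, 10.55 and 10.81 in B6 female vector arrays, again without overlap. The difference was -1.29 ± 0.35 in females (adjusted p = 0.0245), -0.38 ± 0.33 in males (adjusted p = 0.648) and -0.83 ± 0.24 averaged (adjusted p = 0.025). The main Fgfr1 probe set, 1424050_s_at, differed by -0.16 ± 0.12 (adjusted p = 0.406), with 95% interval -0.40 to 0.086. The interval of 1436551_at, -1.32 to -0.35, overlapped this range, and that of 1425911_a_at, -2.51 to -0.62, did not. Whether the probe sets differ from each other was not tested. Over all 37 arrays the main probe set correlated with 1436551_at at r = 0.59 (rho = 0.24) and with 1425911_a_at at r = 0.49 (rho = 0.28), as a description of arrays that share isolates. The files do not say which Fgfr1 transcripts each probe set reads.

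In females, 2 of the 15 receptor probe sets passed, both of Fgfr1 and both lower in 129, where 5.67% of all probe sets passed, 4.45% as lower and 1.23% as higher; 4 of 15 had an unadjusted p under 0.05 against 23.3% of all. In males 0 of 15 passed in limma, where 3.07% of all did, and 5 of 15 had an unadjusted p under 0.05 against 14.9% of all. The smallest p-values in males were those of Fgfr2 1420847_a_at at -1.91 ± 0.58, Axl 1423586_at at 1.27 ± 0.47 and Egfr 1435888_at at 1.18 ± 0.48 (lowest unadjusted p = 0.00239). Without the arrays 129 female vector 1(3) and B6 female vector 5.1(1), 1425911_a_at stayed below the threshold in females (adjusted p = 0.0432) and 1436551_at did not (adjusted p = 0.0757), where 3.41% of all probe sets passed. Without 129 female vector 4(1) or without B6 female vector 3(3), 0 of 15 passed in females. The arrays of the strains did not overlap for 4 of 15 receptor probe sets in females, against 7.01% of all. They were both of Fgfr1 named, Fgfr2 1433489_s_at and, higher in 129, Pdgfra 1438946_at, which was at background on all female vector arrays. In males the arrays did not overlap for 3 of 15 (Fgfr2 1420847_a_at and, higher in 129, Axl and Egfr 1435888_at), against 7.17% of all.

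Marker genes of several cell types also differed between the strains. Of 10 fibroblast and meningeal markers, Col1a1, Col1a2, Col3a1 and Fbln2 passed as higher in 129, averaged over sex and in males, and the mean level of the list was 8.81 to 12.18 in 129 male, against 6.71 to 8.04 in B6 male vector arrays. The mean level of the 10 astrocyte markers was 9.24 to 12.35 in 129 female, against 11.25 to 12.45 in B6 female vector arrays, with 129 female vector 4(1) lowest, and 11.21 to 12.30 in 129 male, against 11.41 to 12.89 in B6 male vector arrays. Averaged over sex, 0 of 10 astrocyte markers passed, and all 10 were lower in 129 (median -0.65).

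The mean level of the 9 proliferation markers tested was 11.27 and 10.53 on 129 female vector 4(1) and 2(1) and 4.99 and 6.89 on 1(3) and 2(3), against 5.00 to 7.81 in B6 female vector arrays. It was 6.68 to 8.08 in 129 male, against 6.24 to 7.28 in B6 male vector arrays. All 9 were higher in 129 averaged over sex (median 1.26) and in females (median 1.57), and 0 passed. The mean level of the 8 microglia and macrophage markers tested was 3.73 to 10.12 in 129 male, against 3.00 to 3.95 in B6 male vector arrays, and 3.12 to 6.27 in 129 female, against 2.82 to 8.85 in B6 female vector arrays. All 8 were higher in 129 males (median 2.72) and averaged over sex (median 1.30), 2 of 8 were higher in females, and 0 passed. Of the list, Cd68 and Fcer1g exceeded background on 37 arrays, Laptm5 on 22, C1qb on 18, Tyrobp on 12 and Csf1r on 11, while Cx3cr1, Itgam and Trem2 did not on any array. Other marker genes that passed between the strains, averaged over sex, were Syt1, a neuronal gene, and Aqp1, a choroid plexus gene, as higher in 129, and Map2, a neuronal gene, Notch3, a pericyte gene, and Ccdc153, an ependymal gene, as lower. The part of these in the receptor differences was not tested. With the 4 arrays of the 129 male isolates 3(1) and 5(1), which carried the highest fibroblast marker levels, left out, the averaged Fgfr2 difference was -0.87 (adjusted p = 0.027) and those of Fgfr1 were -0.82 (adjusted p = 0.0624) and -1.60 (adjusted p = 0.0636), so that 1 of 15 passed, against 6.68% of all.

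**Figure D2:**
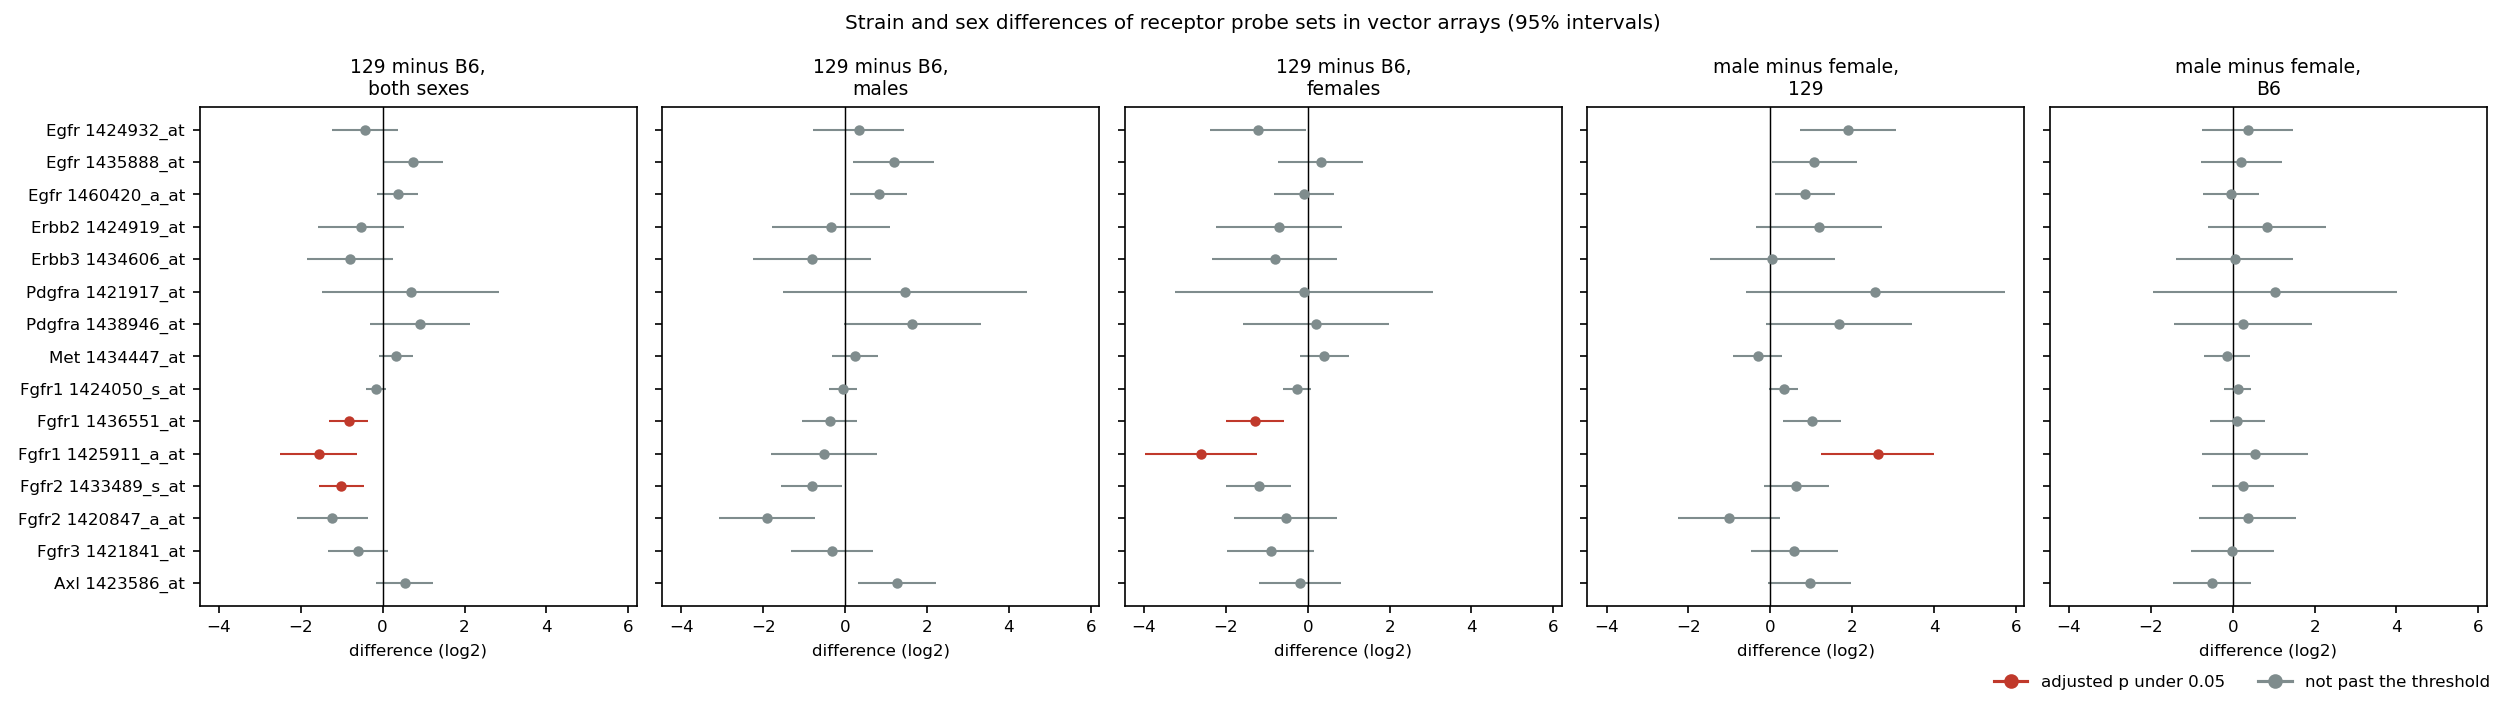
Fitted differences (horizontal axis, log2) of the 15 receptor probe sets (vertical axis) in vector arrays, with 95% intervals, for 129 minus B6 in both sexes, in males and in females and for male minus female in each strain; red marks an adjusted p under 0.05. The red points are Fgfr1 1436551_at, Fgfr1 1425911_a_at and Fgfr2 1433489_s_at in both sexes, both Fgfr1 probe sets in females, and Fgfr1 1425911_a_at between 129 males and females.

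Between the sexes, 1 of 15 receptor probe sets passed in 129 vector arrays, against 1.27% of all probe sets, and 1.07% as higher in males. It was Fgfr1 1425911_a_at, which was higher in 129 males: all 5 male arrays, at 8.94 to 9.40, lay above the 4 female arrays, at 5.67 to 7.29, a separation seen for 8.22% of all probe sets. The difference was 2.62 ± 0.67, a 6.16-fold higher level (adjusted p = 0.0455), and the call was lost in 17 of 37 fits that left out 1 array and in 7 of 13 other alternatives, among them the random block on the number before the bracket, both plasmids with a random replicate block, and leaving out the 2 arrays named above (adjusted p = 0.0689) or the 4 arrays of 129 male 3(1) and 5(1) (adjusted p = 0.215). Over these 13 the adjusted p ranged from 0.0226 to 0.215. Marker lists differed in the same comparison with 0 genes passing: 9 of 10 astrocyte markers (median 0.88), 9 of 10 fibroblast and meningeal markers (median 1.65) and 8 of 8 microglia and macrophage markers (median 1.40) were higher in 129 males, and 2 of 9 proliferation markers were (median -0.77). Their part in the Fgfr1 difference was not tested. In B6 vector arrays 0 of 15 passed in limma, as did 0.0391% of all, and 0 of 15 had an unadjusted p under 0.05 against 1.84% of all. The B6 female arrays here include 5.1(1), whose sex markers went against its label. It also enters the average over strain and the sex dependence of the strain difference given below. Without it and 129 female vector 1(3), 0 of 15 passed in B6, as did 0.0391% of all. For the sex dependence 0 of 15 passed without them, as did 0% of all. Averaged over strain 0 of 15 passed in limma, as did 0.0626% of all (0.0469% as higher and 0.0156% as lower in males), and 3 had an unadjusted p under 0.05, against 11.6% of all. The male and female arrays of both strains overlapped for all 15, and were apart for 0.00391% of all probe sets. The strain difference in males minus that in females was 2.09 ± 0.93 for this probe set (adjusted p = 0.467, where 0% of all probe sets passed, and 2 of 15 receptors against 9.78% of all had an unadjusted p under 0.05), so a strain difference that depends on sex was not shown. The smallest p-values for male minus female were, averaged over strain, those of Fgfr1 1425911_a_at at 1.58 ± 0.46, Egfr 1424932_at at 1.13 ± 0.40 and Fgfr1 1436551_at at 0.57 ± 0.24 (lowest unadjusted p = 0.00182) and, in B6, those of Erbb2 1424919_at at 0.83 ± 0.71, Axl 1423586_at at -0.50 ± 0.47 and Fgfr1 1425911_a_at at 0.53 ± 0.63 (lowest unadjusted p = 0.249).

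Fgfr3, which marks astrocytes and their precursors, did not pass in any comparison. It read 8.55, 9.65, 9.14, 10.83 and 10.52 in 129 male vector arrays, against 9.11, 10.73, 10.66, 10.28 and 9.49 in B6 male vector arrays. It read 8.26, 8.68, 9.06 and 10.61 in 129 female vector arrays, against 9.86, 10.33, 10.71, 10.41 and 8.99 in B6 female vector arrays. The ranges of the strains overlapped in both sexes. The averaged strain difference was -0.61 ± 0.36 (adjusted p = 0.273), with 95% interval -1.34 to 0.12.

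Fgfr2 and Fgfr3 followed each other across arrays more closely than any other pair of the 9 receptors, at r = 0.81 (rho = 0.77) between their main probe sets over 37 arrays, which share isolates and culture. Their sequences just upstream are therefore shown, as 250 bases that end at an annotated transcript start, from RefSeq on the build GRCm38.p6, read 5′ to 3′ on the strand of the gene; Fgfr3 has 2 such starts in the table. The Fgfr2 window is chr7:130266809-130267058 on the minus strand and the Fgfr3 windows are chr5:33721474-33721723 and chr5:33722056-33722305 on the plus strand. Capitals mark matches to the GC box GGGCGG, read on both strands, the short sequence bound by Sp1-type factors; overlapping matches run together.
Fgfr2: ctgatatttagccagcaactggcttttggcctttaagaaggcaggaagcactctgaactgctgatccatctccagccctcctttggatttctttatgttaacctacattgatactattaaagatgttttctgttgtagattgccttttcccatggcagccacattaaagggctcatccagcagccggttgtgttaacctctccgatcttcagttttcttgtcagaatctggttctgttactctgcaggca
Fgfr3, upstream start: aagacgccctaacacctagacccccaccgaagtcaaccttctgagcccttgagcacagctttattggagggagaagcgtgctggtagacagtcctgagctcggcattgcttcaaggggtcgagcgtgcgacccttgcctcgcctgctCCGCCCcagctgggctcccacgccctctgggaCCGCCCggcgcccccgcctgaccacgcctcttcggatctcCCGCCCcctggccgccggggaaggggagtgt
Fgfr3, downstream start: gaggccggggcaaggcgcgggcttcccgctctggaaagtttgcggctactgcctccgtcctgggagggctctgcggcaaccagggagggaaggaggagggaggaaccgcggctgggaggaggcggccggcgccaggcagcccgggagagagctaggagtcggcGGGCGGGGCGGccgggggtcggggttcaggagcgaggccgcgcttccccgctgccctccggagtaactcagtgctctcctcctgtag
The Fgfr2 window held 0 GC boxes and 2 CG dinucleotides, while the Fgfr3 windows held 3 and 2 GC boxes and 19 and 24 CG dinucleotides. A GC box was present in 32.7% of 32851 such windows, and their median number of CG dinucleotides was 6. The E-box CACGTG, which MYC binds, was searched on both strands in the same windows and was in none of these 3 windows, against 6.02% of all; TATAAA was in none of them either, against 12.4% of all. A match or its lack in these windows is a description of the letters. Windows were listed for 7 of the 9 receptors.

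Egfr, the receptor for EGF, TGF-alpha and their relatives, was measured by 3 tested probe sets, none of which passed in any comparison. The main one, 1424932_at, read 11.43, 11.63, 11.47, 10.58 and 10.78 in 129 male vector arrays, against 8.57, 9.78, 9.43 and 9.29 in 129 female vector arrays. All 129 males lay above all 129 females, with a difference of 1.91 ± 0.58 (adjusted p = 0.073), and the other probe sets were at 1.07 (adjusted p = 0.234) and 0.86 (adjusted p = 0.179). In B6 the main probe set was 10.85 ± 0.56 (SD, n = 5) in males and 10.48 ± 0.94 (SD, n = 5) in females, at 0.36 ± 0.54 (adjusted p = 1). By strain, the probe sets differed in sign: averaged over sex, 1424932_at was at -0.44 and 1435888_at at 0.75 (adjusted p = 0.486 and 0.163). Over the arrays 1424932_at correlated with 1435888_at at r = 0.67 and with 1460420_a_at at r = 0.54.

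Erbb2, which has no ligand of its own and acts as the partner of other ErbB receptors, spanned 2.05 to 7.47 over all arrays and was below background on 1. In vector arrays it was 5.13 ± 0.76 (SD, n = 5) in 129 males, 3.94 ± 1.48 (SD, n = 4) in 129 females, 5.48 ± 1.85 (SD, n = 5) in B6 males and 4.64 ± 0.81 (SD, n = 5) in B6 females. The strain difference was -0.53 ± 0.52 (adjusted p = 0.531) and the sex difference 1.01 ± 0.52 (adjusted p = 0.445). Erbb3, a neuregulin receptor with an impaired kinase, was at 4.95, 5.54, 4.996, 6.12 and 5.46 in 129 male vector arrays, against 5.46, 7.76, 6.58, 5.74 and 5.53 in B6 male vector arrays. It was at 5.04, 4.71, 5.14 and 6.55 in 129 female vector arrays, against 5.47, 7.42, 8.54, 4.88 and 4.54 in B6 female vector arrays. Several B6 arrays exceeded every 129 array, and the ranges overlapped. The strain difference was -0.80 ± 0.51 (adjusted p = 0.318).

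Pdgfra, the receptor for PDGF-A and PDGF-C among others, was the most variable of the 9. Its main probe set spanned 2.65 to 11.48 over the 37 arrays, its residual SD within groups was 2.38, and 0.688% of all tested probe sets had a larger one. It read 10.77, 11.48, 10.91, 11.45 and 4.79 in 129 male Cdca7l arrays, against 7.80, 11.45, 11.24, 6.16 and 5.24 in 129 male vector arrays. In B6 males it read 8.53, 6.73, 4.805, 2.65 and 9.46 with Cdca7l, against 6.54, 10.78, 4.10, 4.32 and 8.86 with the vector. High and low arrays occurred in both plasmid groups. In females it read 7.77, 5.23, 8.16 and 8.12 in 129 with Cdca7l, against 6.13, 8.27, 3.58 and 5.24 in 129 with the vector. In B6 females it read 5.69, 8.01, 7.98 and 9.42 with Cdca7l, against 4.86, 7.67, 7.60, 4.97 and 4.38 with the vector. No strain or sex comparison passed: 129 minus B6 was 0.68 ± 1.06 (adjusted p = 0.71) and male minus female 1.80 ± 1.06 (adjusted p = 0.499).

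Pdgfra was at a similar level with both plasmids for most clone labels. Of the 15 labels with both plasmids, the Cdca7l and the vector array of 1 label differed by a median of 0.45, while Cdca7l and vector arrays of different labels within a strain and sex differed by a median of 3.01 over 71 pairs, 6.74 times as much. The 129 male isolate 3(1) was at 11.48 with Cdca7l and 11.45 with the vector, and 5(1) at 11.45 and 11.24. The isolate 3(2) was at 4.79 with Cdca7l and 5.24 with the vector, and 3(3) at 10.77 and 7.80. Of the 129 females, 1(3) was at 8.12 with Cdca7l and 3.58 with the vector, 4(1) at 7.77 with Cdca7l and 6.13 with the vector, 2(1) at 8.16 with Cdca7l and 8.27 with the vector and 2(3) at 5.23 with Cdca7l and 5.24 with the vector. The largest gap of the 15, 4.53, was that of 1(3), whose vector array was the dim one. In B6 males, 2(2) was at 2.65 with Cdca7l and 4.32 with the vector, 3(5) at 9.46 with Cdca7l and 8.86 with the vector, 4(3) at 6.73 with Cdca7l and 6.54 with the vector and 5.6(1) at 4.805 with Cdca7l and 4.10 with the vector. In B6 females, 3(3) was at 7.98 with Cdca7l and 7.60 with the vector, 4(5) at 8.01 with Cdca7l and 7.67 with the vector and 6(3) at 5.69 with Cdca7l and 4.86 with the vector. The plasmids differed by 0.82 or less for 11 labels and by 1.64 to 4.53 for the other 4, 129 male 3(3), 129 female 1(3), 129 female 4(1) and B6 male 2(2). The ratio of the medians was 6.09 for Met, 2.26 to 2.59 for Egfr, Erbb3, Fgfr2 and Axl, and 1.09 to 1.28 for Erbb2, Fgfr1 and Fgfr3. These pairs are a description; the sources used here do not say what the numbers in a clone label stand for.

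**Figure D3:**
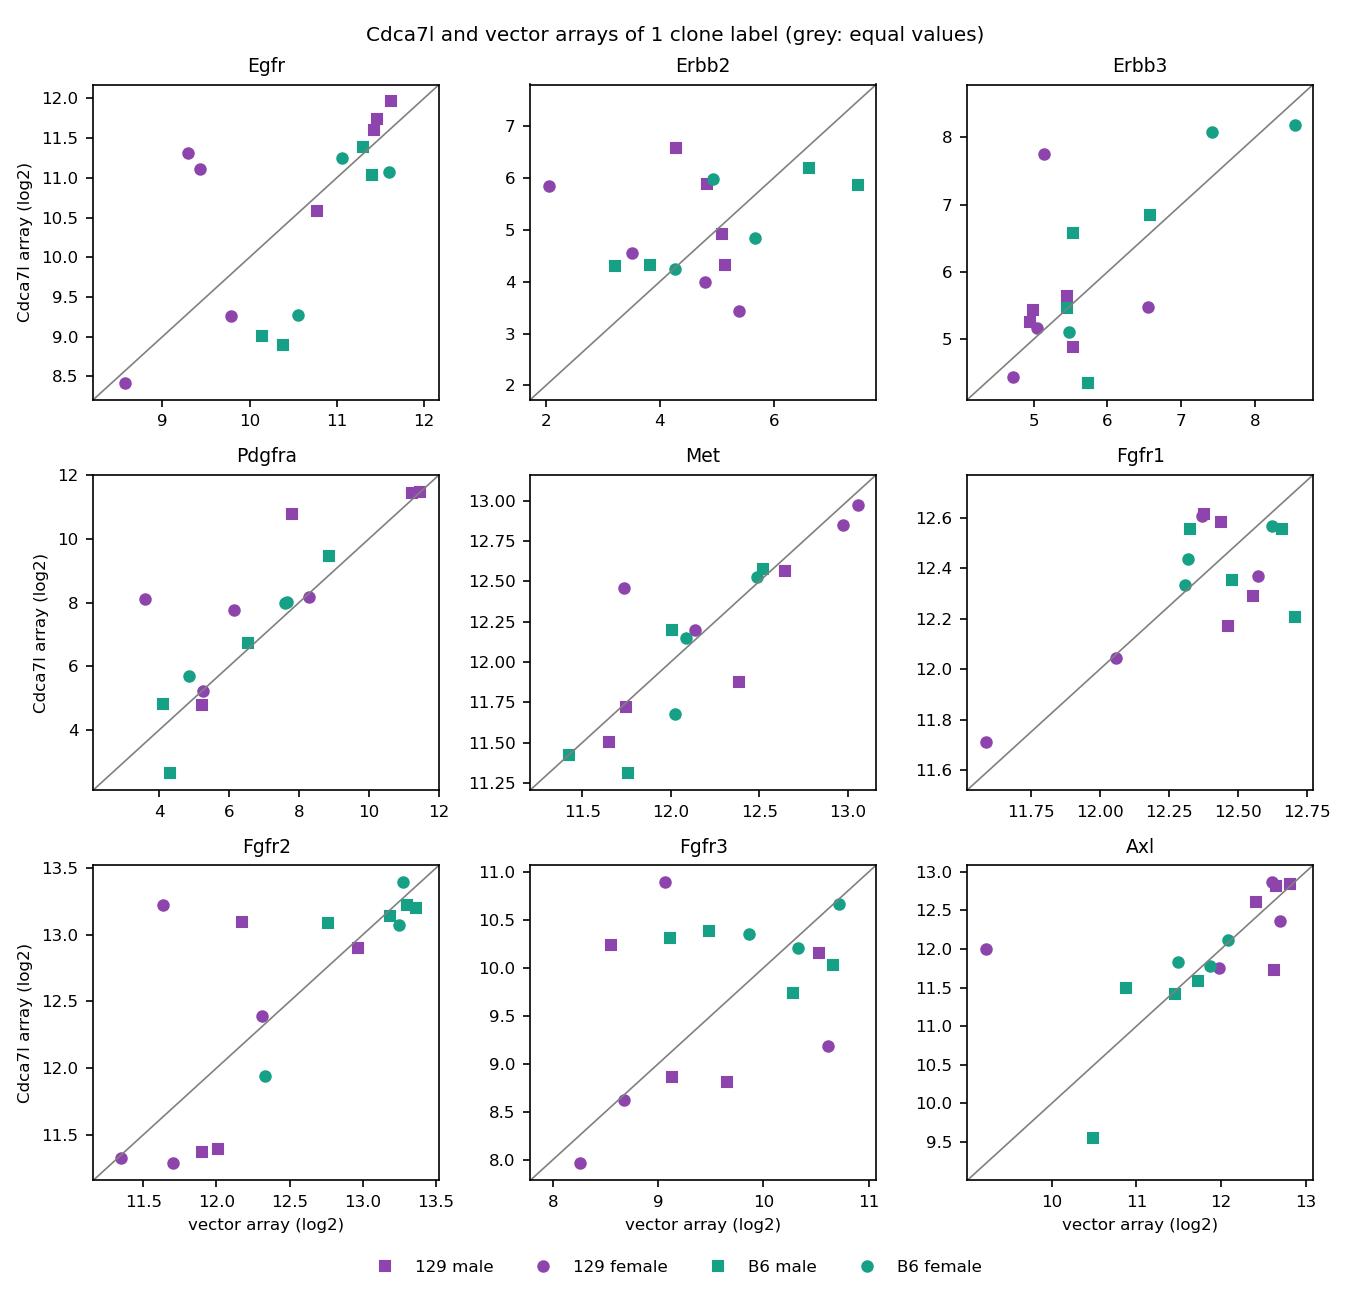
Log2 expression of the main probe set of each receptor on the Cdca7l array (vertical axis) against the vector array (horizontal axis) of the same clone label, with 15 labels per panel; squares are males, circles females, purple 129 and green B6, and the grey line marks equal values. Pdgfra and Met have median distances of 0.45 and 0.083 between plasmids, with 4 labels of Pdgfra 1.64 or more apart, while Erbb2 and Fgfr3 scatter around it.

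The 4 arrays of the isolates 3(1) and 5(1) were the highest for Pdgfra, and the other tested probe set, 1438946_at, read 8.06 and 8.14 with Cdca7l and 7.37 and 6.91 with the vector there, and exceeded background on 9 arrays in all. Fibroblast and meningeal markers were high on the same arrays. Dcn was at 14.06 to 14.30 on these 4, against 2.31 to 8.84 on the other 33, and Lum at 9.12 to 9.87 against 2.42 to 2.93. Eng, an endothelial marker that fibroblasts can also carry, was at 5.76 to 8.16 against 2.07 to 2.77, while Pecam1, Cdh5, Cldn5, Tie1, Egfl7 and Vwf did not exceed background on any array. All 10 fibroblast and meningeal markers were tested, and their mean level was 12.24 and 12.24 with Cdca7l and 12.18 and 12.17 with the vector. On arrays 129 male Cdca7l 3(3) and 1(4), where Pdgfra was 10.77 and 10.91, the mean level of the list was 8.29 and 7.85. Of the oligodendrocyte lineage list, Sox10 and Cspg4, markers of precursors that carry Pdgfra, exceeded background on 1 array each, while Olig1, Olig2 and Cnp did so on 37. The part of any of these cell types in the Pdgfra levels was not tested.

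Met, the receptor for HGF, stayed in a narrow band from 11.31 to 13.05 on all 37 arrays. In vector arrays it was 12.17 ± 0.44 (SD, n = 5) in 129 males, 12.47 ± 0.64 (SD, n = 4) in 129 females, 11.92 ± 0.40 (SD, n = 5) in B6 males and 12.07 ± 0.25 (SD, n = 5) in B6 females. The strain difference was 0.32 ± 0.20 (adjusted p = 0.306) and the sex difference -0.23 ± 0.20 (adjusted p = 0.661).

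Axl, a receptor for GAS6 that takes part in the uptake of dying cells, read 12.62, 12.65, 12.81, 12.42 and 12.41 in 129 male vector arrays, against 11.73, 12.002, 10.87, 10.48 and 11.46 in B6 male vector arrays. Every 129 male array was above every B6 male array, yet the difference of 1.27 ± 0.47, a 2.42-fold higher level, missed the threshold (adjusted p = 0.156). The fibroblast and the microglia and macrophage markers were also higher on these 129 male arrays, as given above, and their part in the Axl difference was not tested. In females it read 12.60, 12.70, 9.22 and 11.97 in 129, against 12.08, 11.87, 11.49, 11.35 and 12.26 in B6, with the dim array 129 female vector 1(3) lowest. Without that array and B6 female vector 5.1(1), Axl passed in males at an unchanged difference (adjusted p = 0.0363, where 3.55% of all passed) and averaged over sex at 0.89 ± 0.27 (adjusted p = 0.0385, where 10.1% of all passed). Both arrays left out were labelled female, so the male values were the same and the spread estimated over all groups changed. Over the alternatives other than leaving out 1 array, the limma adjusted p of the male difference ranged from 8.86e-05 to 0.605. The strain difference in males minus that in females was 1.46 ± 0.68 (adjusted p = 0.484).

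The Cdca7l plasmid was not followed by a detectable change of receptor RNA. Averaged over the 4 strain and sex groups, 0 of 15 receptor probe sets passed in limma, where 2 of all 25579 did (0.00782%), and 0 of 15 had an unadjusted p under 0.05 where 1.27% of all did. In 129 males, 129 females, B6 males and B6 females alone, 0 of 15 passed in each, as did 0% of all probe sets, and 0 of 15 had an unadjusted p under 0.05 where 1.65%, 1.97%, 2.1% and 0.555% of all did. The arrays of both plasmids overlapped for all 15 probe sets, averaged and within each strain and sex, where up to 0.586% of all probe sets did not overlap within a strain and sex. The receptor probe sets were positive in 12 of 15 cases with a median of 0.11, beside 55.2% positive and a median of 0.020 over all tested.

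The smallest p was that of Pdgfra, whose main probe set was at 1.10 ± 0.76 (unadjusted p = 0.158, adjusted p = 0.999), with 95% interval -0.45 to 2.66. Intervals of the main probe sets were narrow for receptors with little scatter: -0.18 to 0.16 for Fgfr1, -0.33 to 0.26 for Met, -0.32 to 0.46 for Fgfr2, -0.40 to 0.65 for Fgfr3 and -0.42 to 0.57 for Axl. They were -0.40 to 0.75 for Egfr, -0.39 to 1.13 for Erbb2 and -0.46 to 1.05 for Erbb3. The other tested probe sets of Fgfr1 and Fgfr2 had wider ones: -0.33 to 0.37 for Fgfr1 1436551_at, -0.56 to 0.79 for Fgfr1 1425911_a_at and -0.73 to 0.50 for Fgfr2 1420847_a_at. The smallest p-values within a strain and sex were these. In 129 males they were those of Pdgfra 1438946_at at 1.45 ± 0.82, Pdgfra 1421917_at at 1.504 ± 1.46 and Fgfr2 1420847_a_at at 0.55 ± 0.58 (lowest unadjusted p = 0.087). In 129 females they were those of Fgfr1 1425911_a_at at 1.06 ± 0.71, Egfr 1424932_at at 0.76 ± 0.61 and Axl 1423586_at at 0.63 ± 0.52 (lowest unadjusted p = 0.144). In B6 males they were those of Fgfr2 1420847_a_at at -0.87 ± 0.58, Egfr 1424932_at at -0.54 ± 0.54 and Fgfr1 1425911_a_at at -0.36 ± 0.63 (lowest unadjusted p = 0.144). In B6 females they were those of Egfr 1435888_at at 0.92 ± 0.51, Erbb3 1434606_at at 1.03 ± 0.75 and Pdgfra 1421917_at at 1.88 ± 1.55 (lowest unadjusted p = 0.0808). None of these 12 differences passed. Without the arrays of 129 male 3(1) and 5(1), or without 129 female vector 1(3) and B6 female vector 5.1(1), 0 of 15 passed in each of these 5 comparisons. The Cdca7l effect did not differ past the threshold between males and females, or between 129 and B6, for any of the 15 (0% of all in each), and 0 of 15 had an unadjusted p under 0.05, where 0.719% and 1.68% of all did. For the effect in males minus that in females the smallest p-values were those of Axl 1423586_at at -0.60 ± 0.49, Erbb3 1434606_at at -0.78 ± 0.74 and Egfr 1424932_at at -0.56 ± 0.57 (lowest unadjusted p = 0.23), and for the effect in 129 minus that in B6 those of Fgfr1 1425911_a_at at 0.92 ± 0.66, Egfr 1424932_at at 0.74 ± 0.57 and Egfr 1435888_at at -0.62 ± 0.50 (lowest unadjusted p = 0.176).

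Group means ± SD are given in the order 129 males, 129 females, B6 males and B6 females, with n = 5, 4, 5 and 4 for Cdca7l and 5, 4, 5 and 5 for the vector. Fgfr1 averaged 12.46 ± 0.22, 12.18 ± 0.39, 12.44 ± 0.15 and 12.42 ± 0.11 with Cdca7l, against 12.47 ± 0.072, 12.15 ± 0.43, 12.53 ± 0.15 and 12.41 ± 0.21 with the vector. Fgfr2 averaged 12.40 ± 0.94, 12.06 ± 0.93, 13.18 ± 0.071 and 12.93 ± 0.67 with Cdca7l, against 12.38 ± 0.50, 11.75 ± 0.40, 13.20 ± 0.26 and 12.95 ± 0.42 with the vector. Fgfr3 averaged 9.69 ± 0.78, 9.17 ± 1.26, 10.19 ± 0.30 and 10.48 ± 0.24 with Cdca7l, against 9.74 ± 0.95, 9.15 ± 1.03, 10.06 ± 0.72 and 10.06 ± 0.67 with the vector. For Fgfr1 and Fgfr2 the highest mean was that of B6 male vector arrays, for Fgfr3 that of B6 female Cdca7l arrays, and for all 3 the lowest was that of 129 female vector arrays. Egfr averaged 11.50 ± 0.53, 10.03 ± 1.42, 10.31 ± 1.24 and 10.63 ± 0.92 with Cdca7l, against 11.18 ± 0.47, 9.27 ± 0.51, 10.85 ± 0.56 and 10.48 ± 0.94 with the vector. Erbb2 averaged 5.72 ± 1.09, 4.45 ± 1.03, 5.36 ± 0.96 and 5.14 ± 0.75 with Cdca7l, against 5.13 ± 0.76, 3.94 ± 1.48, 5.48 ± 1.85 and 4.64 ± 0.81 with the vector. Erbb3 averaged 5.24 ± 0.32, 5.71 ± 1.43, 6.20 ± 1.32 and 7.20 ± 1.43 with Cdca7l, against 5.41 ± 0.47, 5.36 ± 0.81, 6.21 ± 0.97 and 6.17 ± 1.73 with the vector. For Egfr and Erbb2 the highest mean was that of 129 male Cdca7l and the lowest that of 129 female vector arrays, while Erbb3 was highest in B6 female Cdca7l and lowest in 129 male Cdca7l arrays. Pdgfra averaged 9.88 ± 2.86, 7.32 ± 1.40, 6.44 ± 2.77 and 7.77 ± 1.55 with Cdca7l, against 8.38 ± 2.86, 5.81 ± 1.95, 6.92 ± 2.89 and 5.90 ± 1.60 with the vector. Met averaged 11.91 ± 0.40, 12.62 ± 0.36, 11.94 ± 0.54 and 12.03 ± 0.39 with Cdca7l, against 12.17 ± 0.44, 12.47 ± 0.64, 11.92 ± 0.40 and 12.07 ± 0.25 with the vector. Axl averaged 12.26 ± 0.71, 12.25 ± 0.48, 11.19 ± 0.93 and 11.93 ± 0.15 with Cdca7l, against 12.58 ± 0.17, 11.62 ± 1.63, 11.31 ± 0.62 and 11.81 ± 0.39 with the vector. The 8 means of Met spanned 0.71 and those of Pdgfra 4.07, against SDs within groups of 0.44 and 2.38.

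**Figure D4:**
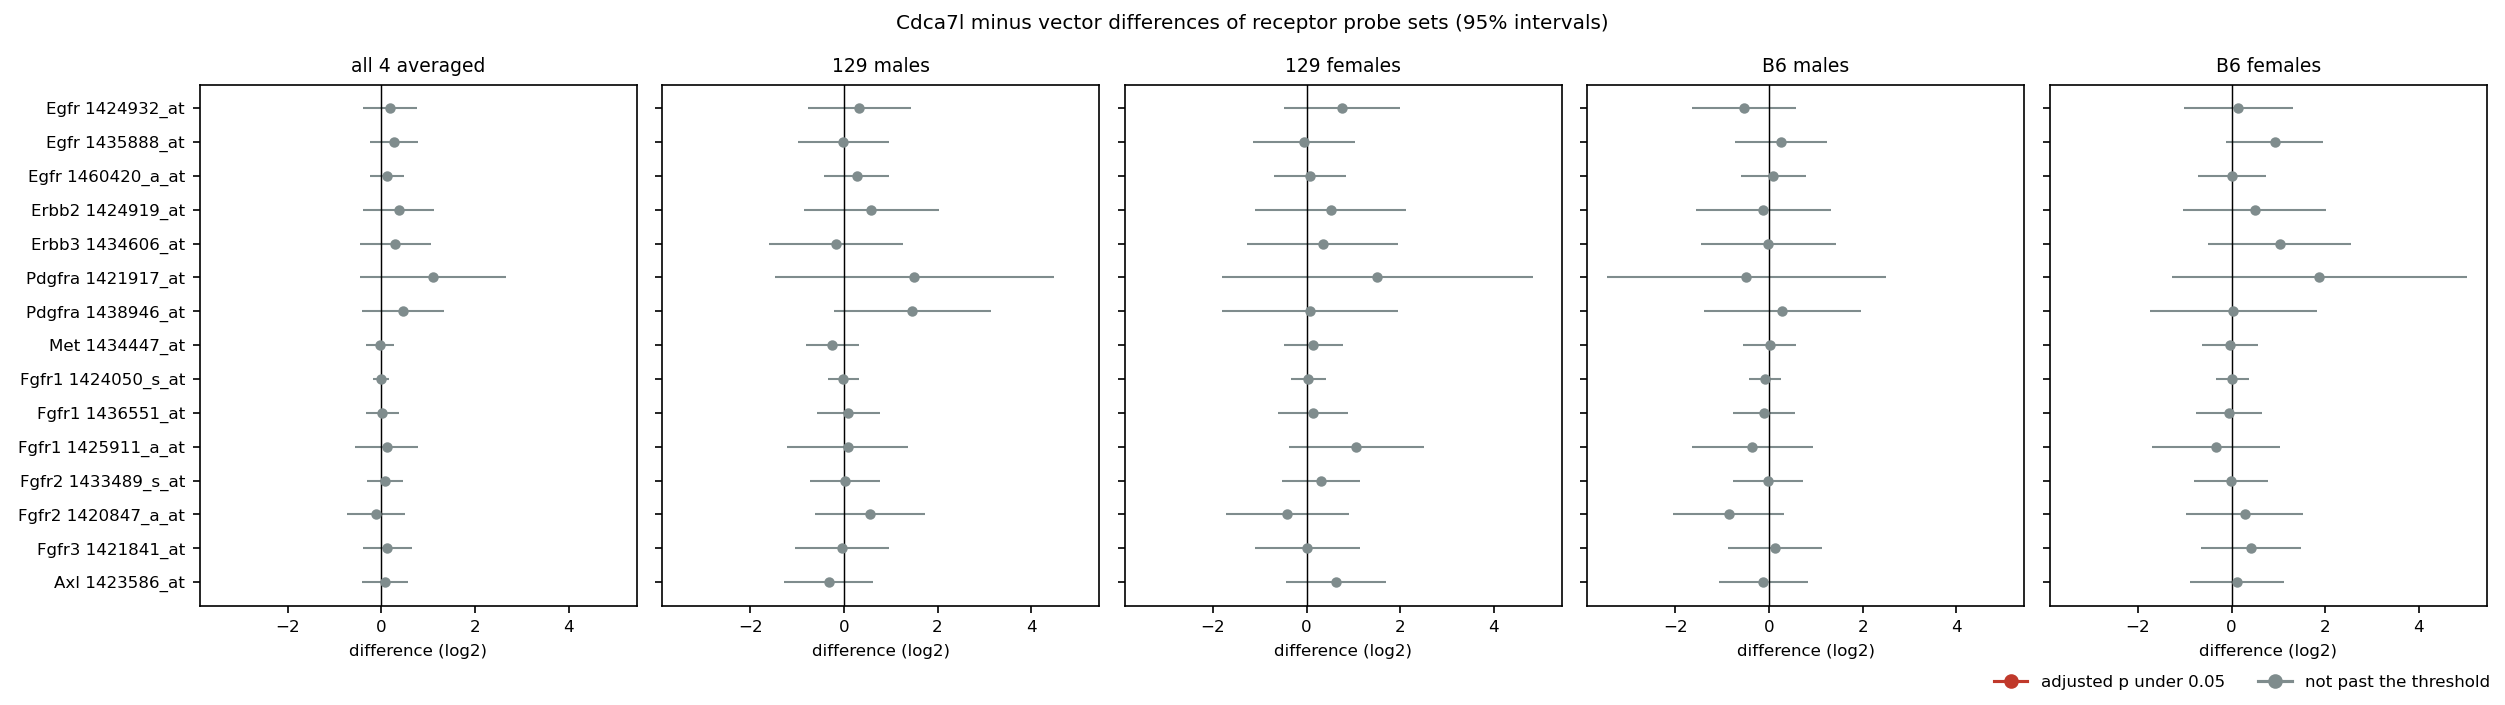
Fitted Cdca7l minus vector differences (horizontal axis, log2) of the 15 receptor probe sets (vertical axis), with 95% intervals, for the 4 strain and sex groups averaged and for each group alone. Every interval includes 0, and those of Pdgfra are the widest.

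Ligands, related receptors, co-receptors and signal proteins were taken as 8 lists with 120 genes, of which 100 were tested each by its brightest probe set. With Cdca7l, 0 of 100 passed in limma in the averaged comparison and in each strain and sex, where 0.00782% and 0% of all probe sets did. In the averaged comparison 1 had an unadjusted p under 0.05, against 1.27% of all. In 129 males 1 did and in 129 females 4 did, against 1.65% and 1.97% of all. In B6 males and B6 females 0 did, against 2.1% and 0.555% of all. Between strains, averaged over sex, 9 were higher and 13 lower in 129 vector arrays, against 3.22% and 6.24% of all probe sets (9.46% passing). In males 4 were higher and 3 lower, against 1.65% and 1.42% of all (3.07% passing). In females 1 was higher and 11 lower, against 1.23% and 4.45% (5.67% passing). These shares cover all tested probe sets, with dim ones and several to a gene, while the lists take the brightest of each gene, so the 2 are not alike. Between the sexes in 129 vector arrays 1 of 100 passed, against 1.27% of all probe sets, and 1.07% as higher in males. It was Cbl, a ubiquitin ligase that removes active receptors from the surface, higher in males at 1.71 ± 0.43 (adjusted p = 0.0445).

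Averaged over sex, 2 ligands were higher in 129. Ereg, which encodes the EGFR ligand epiregulin, was 1 of 6 tested EGF family ligands and rose by 3.72 ± 0.82, a 13.2-fold difference (adjusted p = 0.00352). Fgf7, whose product binds a splice form of FGFR2, was 1 of 6 tested FGFs and rose by 3.79 ± 0.88 (adjusted p = 0.00565). Of 7 ligands of the PDGF, MET and AXL receptors, 3 were lower: Pdgfd, which encodes a ligand of the beta receptor for PDGF, at -3.21 ± 0.43 (adjusted p = 3.49e-06), and Gas6 and Pros1, ligands of the AXL family, at -0.83 ± 0.23 and -0.71 ± 0.23 (adjusted p = 0.0212 and 0.0483). By sex, Pdgfd passed in both, Ereg and Fgf7 in males only, and Gas6 and Pros1 in females only, at -1.45 ± 0.34 and -1.25 ± 0.34. Fgf10, above background on 4 arrays, passed in females only, as higher in 129 at 0.76 ± 0.21.

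Of 12 related receptors tested, Epha2 was higher in 129, at 2.12 ± 0.60, and Fgfrl1, a decoy-like FGF receptor without a kinase, Insr and Ddr2 were lower, at -1.12 ± 0.30, -1.16 ± 0.27 and -1.62 ± 0.47 (adjusted p from 0.00576 to 0.0282 over the 4). Of 10 co-receptors, Gpc1, Cd44 and Nrp2 were higher and the heparan sulfate proteoglycans Sdc2 and Sdc4 lower, with Sdc4 at -1.15 ± 0.15 (adjusted p = 3.27e-06). Of 21 adaptors and relay proteins, Gab1, Pik3ca and Stat3 were lower, at -0.93, -0.55 and -0.85. Of 24 negative regulators 1, Cbl, was lower, at -1.32 ± 0.30 (adjusted p = 0.00427). Of 14 genes that respond to ERK signalling, Fosl1, Phlda1 and Plaur were higher and Fos was lower, at -2.14 ± 0.56, so the list moved both ways. These differences were averaged over sex. Fgfrl1, Insr, Ddr2, Sdc2, Pik3ca and Cbl also passed in females and not in males, with Ddr2 at -2.74 ± 0.69 and Cbl at -2.22 ± 0.43 in females. Gpc1, Phlda1 and Fos passed in males and not in females, and Sdc4 passed in both. Pik3r1 passed in females only, as lower in 129 at -1.19 ± 0.36.

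Across the 37 arrays the receptors fell into loose sets. Fgfr3 correlated with Fgfr2 at 0.81, with Fgfr1 at 0.72, with Erbb3 at 0.65 (rho = 0.69) and with Erbb2 at 0.61 (rho = 0.60), while Egfr correlated with Pdgfra at 0.62 (rho = 0.66). Fgfr2 and Axl ran opposite, at r = -0.43 (rho = -0.62). The 3 genes most like each receptor, by Pearson r of log2 levels, were Ak3 (0.93), Sox6 (0.93) and Ptprz1 (0.93) for Fgfr2, Sez6 (0.93), Sybu (0.92) and Tmod2 (0.92) for Fgfr3, Trmt5 (0.90), Capza1 (0.90) and Antxr2 (0.89) for Axl and Nsd1 (0.87), Carhsp1 (0.84) and Eif2ak2 (0.84) for Egfr. They were Cxadr (0.82), Capn1 (0.81) and Rhou (0.80) for Pdgfra, Kcnip1 (0.85), Xrcc6 (0.84) and Shb (0.83) for Met, Ndrg3 (0.86), Sorcs1 (0.84) and Llgl1 (0.82) for Erbb2, Tmod2 (0.84), Camk2a (0.82) and Acot3 (0.82) for Erbb3 and Nfasc (0.86), Pnmal2 (0.86) and Btbd1 (0.85) for Fgfr1. Without the array 129 female vector 1(3), r lay between 0.78 and 0.94 for these 27 genes. The correlations describe arrays that share isolates, strain and sex and carry no p.

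**Figure D5:**
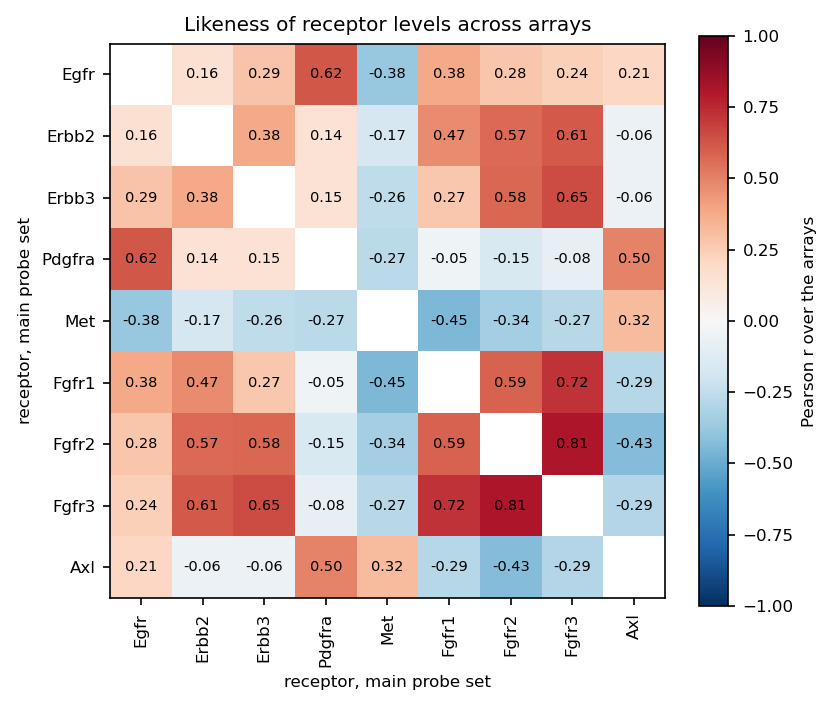
Pearson r between the main probe sets of the 9 receptors (both axes) over the 37 arrays, with red for positive and blue for negative values. The highest value is 0.81 for Fgfr2 and Fgfr3, and Axl is negative with Fgfr1, Fgfr2 and Fgfr3.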

How the data were processed

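RNA of 37 astrocyte cultures was measured on single-colour expression arrays, 1 array a sample. The deposited log2 values were made by the authors with GCRMA in Partek 6.5, per the submitters' processing notes; GCRMA corrects background by probe sequence, which sets dim probe sets to a common low level, normalizes between arrays and sums probes. The sources used here do not say whether this was done on all arrays jointly. No 2 arrays held identical values. Of 45101 probe sets, 64 controls were left out and 25579, above the median of the table (3.189) on at least 4 arrays, were tested. Of all probe sets, 34958 had 1 gene symbol in the platform annotation, 932 several and 9211 none; the 25 receptor probe sets matched symbols of GRCm38.p6 by gene ID. limma 3.58.1 in R 4.3.3 fitted 8 group means, with 14 contrasts, 29 residual degrees of freedom, Benjamini-Hochberg adjustment over all tested probe sets and a threshold of 0.05. Strain and sex means were compared in vector arrays, so that a clone label entered each mean once. The number before the bracket repeated within groups. It was 3, 3, 5, 5 and 3 on 129 male vector arrays and 4, 2, 1 and 2 on 129 female ones. On B6 male vector arrays it was 4, 2, 5.6, 2 and 3. The correlation of arrays that share it was 0.29, so these arrays may not be independent. The spread came from all 37 arrays, in which clone labels with both plasmids enter 2 times. The code was tested on simulated data with known changes. The number of arrays limits the precision.

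The receptors and gene lists were chosen with earlier results of these data known. Named are all 9 receptors with all their probe sets, in each comparison those past the threshold or else the 3 of smallest p, list genes past the threshold (at most 6 a list and comparison), and the 3 genes most like each receptor. In B6, arrays of the same clone label deviated together in males (r from 0.38 to 0.57, 4 pairs) and females (0.43 to 0.77, 3 pairs). In 129, r ranged from -0.089 to 0.62 in males and from 0.061 to 0.72 in females (4 pairs each), with 1 pair of each under 0.1. The main fits took no clone label as a pair or block in either strain. Blocks on the clone label were run as alternatives, with both strains included. Nothing says that all replicates came from separate animals, so p-values measure the spread between these arrays, which may be in part technical. Alternatives were other filters, priors, scalings, array weights, blocks, separate fits and arrays left out; leaving out the 4 arrays of 129 male 3(1) and 5(1) was chosen after seeing the data.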

Additional observations from a re-analysis of the deposited data

Results flagged for a closer look

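In 120 combinations of a receptor probe set and a group, 11 held 1 array whose gap to the nearest other array was large against the range of its group by Dixon's criterion at 95%. Chance alone gives about 1 in 20. No explanation was tested for these arrays. Cdca7l effects of opposite sign in every array of 2 groups could not be found, because the arrays of both plasmids overlapped within each strain and sex for every tested receptor probe set.

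Egfr 1424932_at was 10.58 on 129 male Cdca7l 3(2), where the other arrays of the group lay between 11.60 and 11.96. The same probe set was 9.27 on B6 female Cdca7l 6(3), where the others lay between 10.93 and 11.25. Egfr 1460420_a_at was 4.64 on 129 female vector 4(1), where the others lay between 4.89 and 4.93, and 5.71 on B6 male vector 4(3), where the others lay between 4.51 and 4.796. Fgfr1 1425911_a_at was 5.60 on B6 female Cdca7l 6(3), the array also low for Egfr, where the others lay between 9.69 and 10.24. Axl 1423586_at was 9.55 on B6 male Cdca7l 2(2), where the others lay between 11.42 and 11.87.

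Pdgfra 1421917_at was 5.23 on 129 female Cdca7l 2(3), where the others lay between 7.77 and 8.16, and 4.79 on 129 male Cdca7l 3(2), where the others lay between 10.77 and 11.48. Pdgfra 1438946_at was 3.17 on 129 female Cdca7l 2(1), where the others lay between 2.53 and 2.55. It was 2.08 on B6 female vector 6(3), where the others lay between 2.48 and 2.52, and 3.25 on B6 male vector 2(4), where the others lay between 2.43 and 2.58; these 3 groups lie at or near the background level of 3.189.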

How the results depend on the processing

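In the Cdca7l comparisons, their interactions, B6 male minus female and the sex dependence of the strain difference, the count of receptor probe sets passing stayed at 0 under every alternative run, the fixed and random replicate block on the clone label included. For 129 minus B6 averaged over sex (3 of 15), 0 passed with a random block on the number before the bracket, 1 with 1 probe set per gene, 1 without the 4 arrays of 129 male 3(1) and 5(1), 4 with array weights, both plasmids and a random replicate block, groups fitted alone, and without 129 female vector 1(3) and B6 female vector 5.1(1), and 1 to 4 with 1 array left out. Fgfr1 1436551_at then missed the threshold without 129 female vector 4(1), 129 female vector 2(1) or B6 female vector 3(3), and Fgfr1 1425911_a_at without 129 female vector 4(1), B6 female vector 4(5) or B6 female vector 3(3). For 129 minus B6 in females (2 of 15), 0 passed under quantile scaling and with 1 probe set per gene, 1 with array medians aligned, 1 with groups fitted alone, 1 without that pair of arrays, 3 with the random replicate block in either form and without the 4 arrays, and 0 to 3 with 1 array left out. In males (0 of 15), 4 passed with array weights, 2 with groups fitted alone, 1 under quantile scaling, 1 with both plasmids and a random replicate block, 1 without the same pair of arrays, and 0 to 1 with 1 array left out. For male minus female in 129 (1 of 15), 0 passed with no filter, quantile scaling, medians aligned, both plasmids and a random replicate block, the block on the number before the bracket, 1 probe set per gene, and without either set of arrays, and 0 to 1 with 1 array left out; averaged over strain (0 of 15), 1 passed with array weights and 1 with groups fitted alone. Over all probe sets the count passing between strains averaged over sex was 2420, and 1286 to 5511 under the alternatives, with 178 to 2113 in females (1451), 301 to 5369 in males (785) and 27 to 728 between the sexes in 129 (326). Within a strain and sex the Cdca7l count of 0 was at most 98. Signs turned for Egfr 1424932_at with array weights, at 0.17 for Cdca7l minus vector in B6 males and 0.0052 for the effect in males minus that in females, for Erbb3 in B6 females with the fixed replicate block, at -0.018, and for Axl in 129 females without 129 female vector 1(3), at -0.17 (-0.17 to 0.99 with 1 array left out); none of these had passed. The causes were not tested. Dim probe sets carry no order at the background level.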

Other observations

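Among the pairs of 1 clone label, Egfr 1424932_at differed most in 129 females, where 2(3) was at 11.32 with Cdca7l and 9.29 with the vector and 1(3) was at 11.12 with Cdca7l and 9.43 with the vector. The vector array of 1(3) was the dim one. In B6, Egfr was at 8.90 with Cdca7l and 10.39 with the vector in male 5.6(1), at 9.00 and 10.14 in male 2(2), and at 9.27 and 10.55 in female 6(3). The other 10 labels differed by 0.53 or less. The array of B6 female Cdca7l 6(3) was also low for Fgfr1 1425911_a_at, at 5.60.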
